A study of Mus musculus with 6 samples.

Results

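Mitochondrial ribosomal protein genes, taken here as every gene whose symbol is Mrpl or Mrps followed by a number, were compared between tumour macrophages of mice given vehicle and of mice given PLX3397. The rule found 77 of the 19938 genes on the array, 48 with an Mrpl symbol for the large ribosomal subunit and 29 with an Mrps symbol for the small subunit. They lie on 85 probe sets that carry exactly 1 gene symbol, and each gene was read from its probe set with the highest mean signal. Mrpl53 was not analysed here because its probe set carries a further gene symbol. The cells came from C57BL/6 mice whose livers had been implanted with hepa1-6, a cell line grown from a mouse hepatoma, and both groups carried these tumours. Macrophages were sorted by flow cytometry, and their RNA was read on Affymetrix Mouse Gene 1.0 ST arrays, 3 for vehicle and 3 for PLX3397, an inhibitor of the receptor kinases CSF1R, KIT and FLT3. The labels state no dose, duration, sex or age. The samples are titled biological replicates, and nothing says that each came from its own mouse, so a p-value here speaks of the spread among these samples alone, which may be technical. The description fields also call the vehicle samples M(LPS+IFNγ) and the treated samples M(IL4), names of cultured macrophages that go against the titles and treatment labels. Groups follow the titles.

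The mitochondrial ribosome translates the few proteins encoded in mitochondrial DNA, all of them subunits of the respiratory chain and ATP synthase. Its rRNAs are made inside the organelle, whereas its proteins are encoded in the nucleus, made in the cytosol and imported. Many of these proteins have a bacterial counterpart, such as Mrpl3 or Mrps12, and others, such as Mrpl45 or Mrps22, exist only in mitochondria. Defects in several of these genes impair respiration in patients. Macrophages draw on respiration to different degrees in different activation states.

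All values are log2 signals as deposited, changes are PLX3397 minus vehicle, and a gene is called where its limma p-value, adjusted by Benjamini-Hochberg over all 19938 genes, is under 0.05. Array medians lay between 4.21 and 4.25 for vehicle and between 4.32 and 4.35 for PLX3397. A background level, set at the 95th percentile of signal over 1190 genes for olfactory or vomeronasal receptors, lay between 3.52 and 3.58, and 76 of the 77 genes exceeded it on every array. The macrophage markers Csf1r, Cd68, Lyz2 and Adgre1 were above it on all 6 arrays, and the mean of 10 such markers was 10.27 to 10.31 in vehicle and 9.99 to 10.18 with PLX3397 (2 called higher, 5 lower). The mean of 10 endothelial markers was 3.91 to 4.05 in vehicle and 4.57 to 4.78 with PLX3397 (5 called higher, Tek at background), and that of 7 B cell markers 3.87 to 3.91 and 4.24 to 4.34 (4 higher; Ms4a1, Cd79a and Jchain at background). Of 19 cell cycle genes, 6 were called higher and 0 lower, with means of 5.26 to 5.30 and 5.47 to 5.48. Neutrophil markers averaged 4.21 to 4.31 and 4.29 to 4.40 (11 genes, 3 higher, 1 lower), with 6 at background, Ly6g, Elane and Ngp among them. The 8 T cell markers (3.62 to 3.75 and 3.69 to 3.76), 7 NK cell markers (2.96 to 3.03 and 3.04 to 3.09) and 10 hepatocyte and hepatoma markers (3.71 to 3.82 and 3.79 to 3.88) gave 0 calls. Of these, 3 T cell, 6 NK cell and 3 hepatocyte and hepatoma markers were at background on all arrays, Cd3d, Ncr1 and Alb among them. Of 8 fibroblast markers 2 were called lower (5.43 to 5.80 and 5.41 to 6.11). The part of these markers in the results was not tested, and a change in the mix of sorted cells cannot be told apart from a change in RNA per cell.

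Mitochondrial ribosomal protein genes were lower more often than higher with PLX3397. Of the 77 genes, 29 fell (37.7%), 7 rose (9.09%) and 41 were not called, beside 18.3% of all genes called lower, 19.6% called higher and 37.8% called in either direction. The median change was -0.17, against 0.04 over all genes. The 3 PLX3397 arrays lay below the 3 vehicle arrays, without overlap, for 37 genes (48.1%, against 21.9% of all genes) and above them for 12 (15.6%, against 27.4% of all genes). The falls reached 1 log2 in 4 genes, and the largest rise was 0.63. In the plot of all 77 changes the falls of both subunits run without a break into the genes that were not called.

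**Figure D1:**
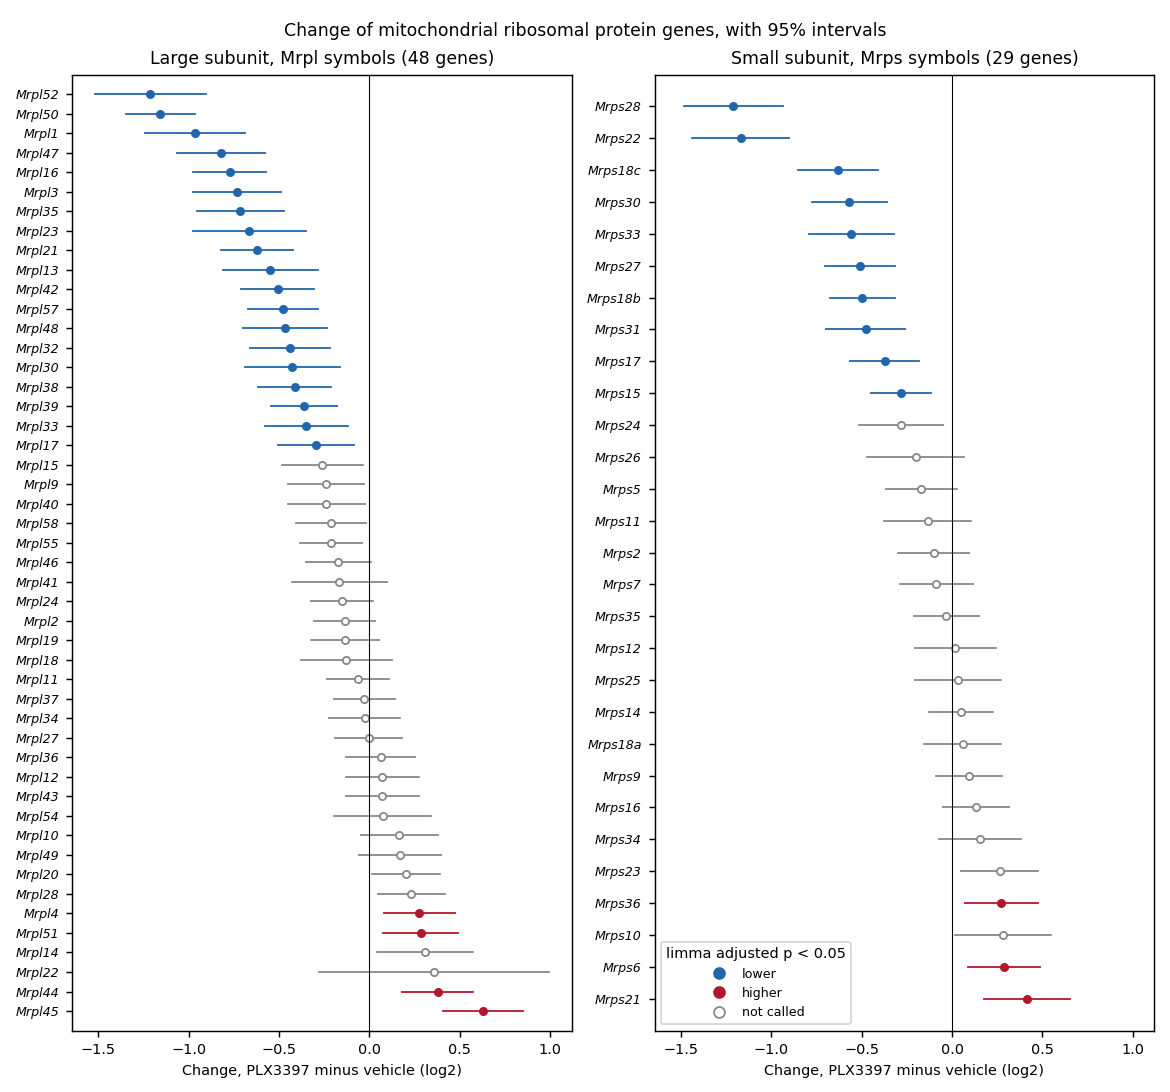
Change of each mitochondrial ribosomal protein gene (log2, PLX3397 minus vehicle, points) with its 95% interval from the limma fit (lines), 48 large subunit genes on the left and 29 small subunit genes on the right. Blue points were called lower (19 and 10), red points higher (4 and 3), and open grey points were not called.

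The size of this shift depended on signal level and scaling. On these arrays the median change of all genes was 0.06 for genes with a mean level of 5 to 6, -0.10 for 6 to 7, -0.14 for 7 to 8 and -0.06 for 8 to 9. In the same ranges the medians of the mitochondrial ribosomal protein genes were -0.26 (15 genes), -0.17 (29), -0.14 (23) and -0.0040 (7). At levels of 6 to 7, 37.9% of them were called lower against 38.6% of all genes, and at 7 to 8, 26.1% against 40.0%, so the share of falls was at or under that of other genes of like signal there. At 5 to 6 it was 46.7% against 27.0%, and at 8 to 9, with 7 genes, 42.9% against 35.1%. The share called higher was 3.45% against 24.5% of all genes at 6 to 7 and 8.70% against 23.1% at 7 to 8, but 28.6% against 29.9% at 8 to 9. With arrays centred on their medians, which took the all-gene median from 0.04 to -0.09, 41 fell and 1 rose, so 2.38% of calls were rises in place of 19.4%. With cyclic loess normalisation 29 fell and 13 rose, 31.0% of calls, and with quantile normalisation 29 fell and 12 rose. Rises were 51.7% of the calls over all genes as deposited, 30.6% with centring, 48.3% with cyclic loess and 47.4% with quantile normalisation. The count of 7 rises became 3 without vehicle replicate 1 and 4 without PLX3397 replicate 1.

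**Figure D2:**
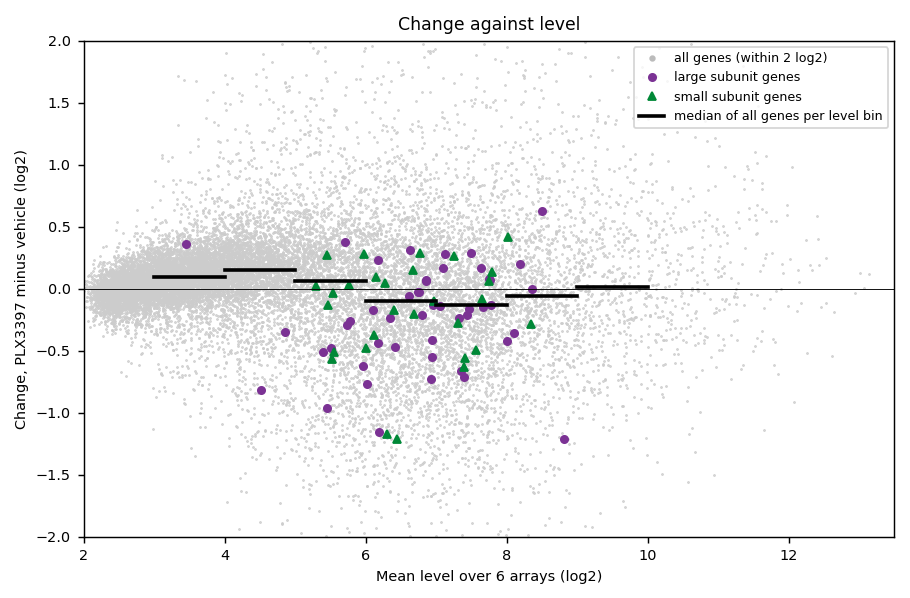
Change (log2, PLX3397 minus vehicle) against mean level over the 6 arrays (log2) for large subunit genes (circles), small subunit genes (triangles) and all genes within 2 log2 of 0 (grey). Black bars are the medians of all genes in level ranges of 1 log2, which run from 0.15 at 4 to 5 down to -0.14 at 7 to 8.

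The largest falls came from proteins of both subunits. Mrpl52, a large subunit protein found only in mitochondrial ribosomes, read 9.44, 9.40 and 9.44 on the vehicle arrays and 8.22, 8.53 and 7.89 on the PLX3397 arrays. The vehicle values are nearly equal, and every PLX3397 value is lower by more than the spread of either group. The change was -1.21 (SE 0.14, limma adjusted p = 6.05e-05), or 2.32-fold lower. Mrps28, a small subunit protein related to bacterial S1, read 7.09, 6.91 and 7.15 in vehicle and 6.09, 5.82 and 5.61 with PLX3397, again with no overlap, and fell by 1.21 (SE 0.12, adjusted p = 2.64e-05). Mrps22, a mitochondria-specific protein of the small subunit, read 6.85, 6.98 and 6.83 and then 5.77, 5.93 and 5.45. It fell by 1.17 (SE 0.12, adjusted p = 2.92e-05). Mrpl50, also without a bacterial counterpart, read 6.74, 6.83 and 6.74 against 5.61, 5.51 and 5.72, so its groups are far apart and each is tight (SD 0.06 and 0.11). Its change of -1.16 (SE 0.09) had the lowest adjusted p of the 77 genes, 3.09e-06.

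The next falls were those of proteins with bacterial counterparts. Mrpl1, of the L1 stalk that moves with departing tRNA, read 6.01, 6.07 and 5.74 in vehicle and 4.85, 5.21 and 4.85 with PLX3397 (change -0.96, SE 0.12, adjusted p = 1.37e-04). Mrpl47, the counterpart of bacterial L29 at the mouth of the peptide exit tunnel, read 4.90, 4.71 and 5.15 and then 4.10, 4.06 and 4.14 (change -0.82, SE 0.11). Mrpl16 went from 6.41 ± 0.08 to 5.64 ± 0.12 (SD, n = 3), and Mrpl3, whose protein reaches toward the peptidyl transferase centre, from 7.29 ± 0.13 to 6.56 ± 0.18. Mrpl35 went from 7.76 ± 0.13 to 7.05 ± 0.18 and Mrpl23, another protein at the exit tunnel, from 7.69 ± 0.17 to 7.02 ± 0.28. These 4 changed by -0.77, -0.73, -0.71 and -0.67, and in each the groups did not overlap.

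The other 19 falls were smaller and lay between -0.63 and -0.28, all without overlap between groups. In the large subunit they were those of Mrpl21 (-0.62), Mrpl13 (-0.55), Mrpl42 (-0.51), Mrpl57 (-0.48), Mrpl48 (-0.47), Mrpl32 (-0.44), Mrpl30 (-0.43), Mrpl38 (-0.41), Mrpl39 (-0.36), Mrpl33 (-0.35) and Mrpl17 (-0.30). In the small subunit they were those of Mrps18c (-0.63), Mrps30 (-0.57), Mrps33 (-0.56), the pentatricopeptide repeat protein gene Mrps27 (-0.51), Mrps18b (-0.50), Mrps31 (-0.48), Mrps17 (-0.37) and Mrps15 (-0.28). Mrps15 had the smallest of these changes and a tight spread, with 8.49, 8.50 and 8.48 in vehicle and 8.21, 8.25 and 8.16 with PLX3397 (adjusted p = 0.013). Over 17 other settings of the analysis, 25 of the 29 falls were called in every setting that measured them. The exceptions were Mrpl17, Mrpl30, Mrpl33 and Mrps15.

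The 7 rises were smaller than the large falls. Mrpl45, which sits at the exit tunnel and tethers the ribosome to the inner membrane, read 8.13, 8.11 and 8.33 in vehicle and 8.81, 8.96 and 8.68 with PLX3397. All PLX3397 arrays are higher, and the change of 0.63 (SE 0.10, adjusted p = 6.18e-04) is 1.55-fold. This was the 1 rise called in every setting that measured it. Mrps21, a small subunit protein with a bacterial counterpart, read 7.76, 7.81 and 7.86 and then 8.23, 8.43 and 8.02 (change 0.42, SE 0.11, adjusted p = 0.011). Mrpl44, which has a ribonuclease III-like fold, went from 5.52 ± 0.08 to 5.90 ± 0.10 (change 0.38, adjusted p = 0.0064). Mrps6 (0.29), Mrpl51 (0.29), Mrpl4 (0.28) and Mrps36 (0.27) had adjusted p between 0.028 and 0.036. Each of these 4 lost its call in between 6 and 8 of the settings that measured it (16 for Mrps36 and 17 for the others), centring of arrays among them. Mrps36 carries an Mrps symbol, but its protein is a component of the 2-oxoglutarate dehydrogenase complex and not of the ribosome.

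**Figure D3:**
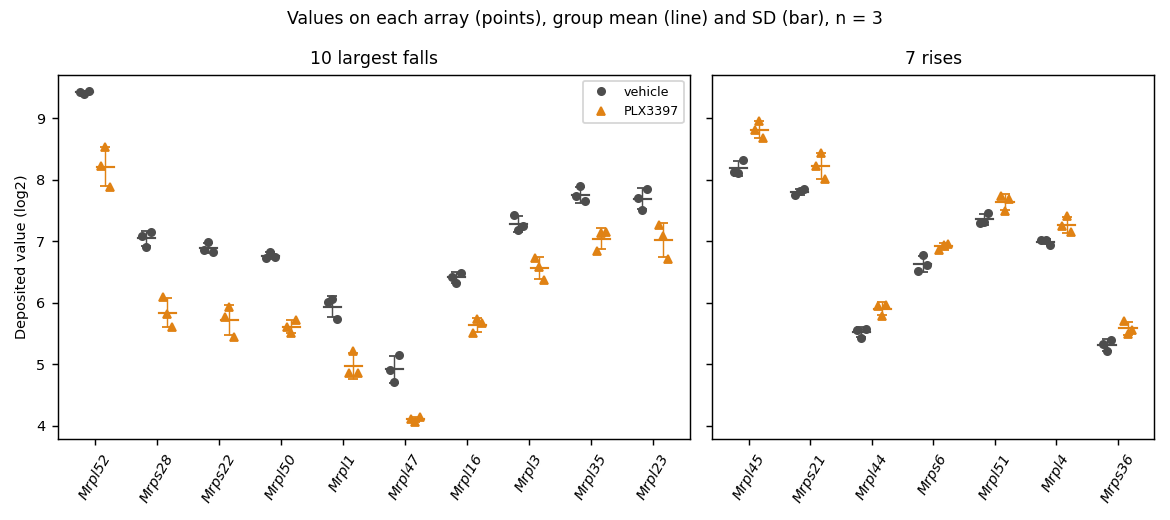
Deposited log2 values on each array for the 10 largest falls (left) and the 7 rises (right). Circles are vehicle arrays and triangles PLX3397 arrays, lines are group means and bars the SD of 3 arrays. In all 17 genes the groups are separate, by the widest margin in Mrpl50.

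No call was made for 41 genes, 22 with changes below 0 and 19 above. In the large subunit they were Mrpl2, Mrpl9, Mrpl10, Mrpl11, Mrpl12, Mrpl14, Mrpl15, Mrpl18, Mrpl19, Mrpl20, Mrpl22, Mrpl24, Mrpl27, Mrpl28, Mrpl34, Mrpl36, Mrpl37, Mrpl40, Mrpl41, Mrpl43, Mrpl46, Mrpl49, Mrpl54, Mrpl55 and Mrpl58, with changes from -0.26 to 0.31 without Mrpl22, which is near background. In the small subunit they were Mrps2, Mrps5, Mrps7, Mrps9, Mrps10, Mrps11, Mrps12, Mrps14, Mrps16, Mrps18a, Mrps23, Mrps24, Mrps25, Mrps26, Mrps34 and Mrps35, from -0.28 to 0.28. Among them are the proteins of the stalk that recruits translation factors. Mrpl10, Mrpl11 and Mrpl12 had changes of 0.17 (95% interval -0.05 to 0.38), -0.06 (-0.24 to 0.11) and 0.07 (-0.13 to 0.27). Mrps12, which lines the decoding centre, read 5.37, 5.15 and 5.35 in vehicle and 5.45, 5.31 and 5.16 with PLX3397. Its change was 0.02 (interval -0.21 to 0.24), and its direction turned under 5 of the 16 settings that measured it. Mrpl22 exceeded background on 1 array of each group, so no fold is given. Its values were 3.07, 3.05 and 3.71 and 3.44, 4.37 and 3.11.

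Both subunits held more falls than rises. Of the Mrpl genes 19 of 48 fell (39.6%) and 4 rose, with a median change of -0.19. Of the Mrps genes 10 of 29 fell (34.5%) and 3 rose, with a median of -0.10. Of all genes 18.3% were called lower and 19.6% higher. At mean levels of 6 to 7, the range that holds both median levels (6.89 and 6.45), 38.6% were called lower and 24.5% higher. The small subunit median was -0.05 without PLX3397 replicate 3 and -0.05 with quantile or cyclic loess normalisation, -0.24 with centring and -0.17 among genes with a mean level over 6. Its rises numbered 1 without vehicle replicate 1. The median signal of Mrpl genes was 6.92, 6.94 and 6.94 on the vehicle arrays and 6.85, 6.85 and 6.70 on the PLX3397 arrays. That of Mrps genes was 6.52, 6.64 and 6.79 and then 6.31, 6.36 and 6.45. Both sets of medians are lower on every PLX3397 array than on any vehicle array. The difference between the median changes of the subunits was -0.09. It turned to 0.03 among genes with a mean level over 6, and it was not tested. Another measure, the Mrpl median signal less the Mrps median signal, was 0.40, 0.30 and 0.16 on the vehicle arrays. On the PLX3397 arrays it was 0.55, 0.49 and 0.25 (pooled SD within groups 0.14). These values tended to be higher with PLX3397, a direction opposite to the -0.09, and the groups overlapped. Symbols and structure disagree for a few genes, since the proteins of Mrps18a and Mrps30 are found in the large subunit. Counted by structure and without Mrps36, 20 of 50 large subunit genes fell and 4 rose (median -0.19), and 9 of 26 small subunit genes fell and 2 rose (median -0.12).

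Genes without a bacterial counterpart were called lower in 13 of 30 cases (43.3%) and higher in 3, with a median of -0.21. Those with one were called lower in 16 of 46 cases (34.8%) and higher in 3, with a median of -0.14. Over all genes 18.3% were called lower and 19.6% higher. At mean levels of 6 to 7, the range that holds the median levels of both classes (6.80 and 6.79), 38.6% of all genes were called lower. Within the small subunit the medians were -0.34 for the 10 mitochondria-specific genes, of which 5 fell and 0 rose, and -0.09 for the 16 others, of which 4 fell and 2 rose. Within the large subunit they were -0.19 and -0.18. These are counts of genes that share 6 arrays, and no difference between the classes was tested.

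The 3 Mrps18 paralogues are related to bacterial S18, but only Mrps18c was classed above as its counterpart, and Mrps18a and Mrps18b were counted as mitochondria-specific. Mrps18c, the S18 of the small subunit, read 7.63, 7.68 and 7.80 in vehicle and 7.05, 7.25 and 6.94 with PLX3397 (change -0.63, SE 0.10, adjusted p = 5.76e-04). Mrps18b, also in the small subunit, read 7.78, 7.78 and 7.87 and then 7.39, 7.27 and 7.27 (change -0.50, SE 0.08, adjusted p = 6.63e-04). Mrps18a, in the large subunit, read 7.72, 7.71 and 7.75 and then 7.85, 7.91 and 7.59, groups that overlap (change 0.06, interval -0.16 to 0.27, adjusted p = 0.687). The 2 paralogues of the small subunit are lower on every PLX3397 array, and the 95% intervals of their changes (-0.85 to -0.41 and -0.67 to -0.32) do not meet that of Mrps18a. The differences between paralogues were not tested.

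Of the 77 genes, 8 have 2 probe sets, and in a fit over all probe sets the pairs disagreed in places. For Mrpl23 the second probe set changed by -0.65 beside -0.67, for Mrps33 by -0.49 beside -0.56 and for Mrps36 by 0.40 beside 0.27, all called. For Mrpl47, however, the second probe set read 4.65, 4.17 and 4.07 in vehicle and 4.15, 4.31 and 4.35 with PLX3397, a change of -0.03 against -0.82 on the probe set used. For Mrpl51 the second changed by -0.02 (adjusted p = 0.931) against 0.29, so its rise rests on 1 probe set. The second probe sets of Mrpl27, Mrpl41 and Mrps5 gave no call, as did the first. RefSeq lists 6 pseudogenes of these families, among them copies of Mrpl23, Mrpl27 and Mrps36, and probes may be shared with them.

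Promoter sequence was compared because 29 of the 77 genes were called lower and because genes for factors that bind such promoters were measured on the same arrays. RefSeq windows of 300 bases on build GRCm38.p6, from 250 bases before to 50 after the start, were found for 68 of the 77 genes. The ETS core bound by GABPA, CCGGAAG on either strand, was present in 25 of the 68 (36.8%) and in 12.9% of 17492 protein-coding genes. It was present in 12 of 26 genes that fell, 2 of 6 that rose and 11 of 36 that were not called. The YY1 motif was in 5 of 68 windows (7.35%, against 1.06% of protein-coding genes), the NRF1 palindrome in 3 (4.41%, against 1.47%), and the E-box CACGTG in 5 (7.35%, against 8.91%). A match is a description of letters and not evidence of binding, and the windows compared were not matched by base composition. The windows below belong to 3 of the 10 genes with the largest falls and to Mrps21, which rose, and show that the same core occurs in both. Each is written 5′ to 3′ on the strand of its gene, and capitals mark the ETS core in Mrpl52, Mrps22 and Mrps21 and the YY1 motif in Mrpl35.
Mrpl52 (chr14:54426659-54426958, plus strand): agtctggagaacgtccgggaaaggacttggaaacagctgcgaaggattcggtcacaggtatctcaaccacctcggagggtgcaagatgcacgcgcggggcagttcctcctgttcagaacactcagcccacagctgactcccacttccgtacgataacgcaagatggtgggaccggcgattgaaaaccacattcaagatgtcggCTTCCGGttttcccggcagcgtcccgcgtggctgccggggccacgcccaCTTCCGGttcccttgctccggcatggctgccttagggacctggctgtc
Mrps22 (chr9:98601630-98601929, minus strand): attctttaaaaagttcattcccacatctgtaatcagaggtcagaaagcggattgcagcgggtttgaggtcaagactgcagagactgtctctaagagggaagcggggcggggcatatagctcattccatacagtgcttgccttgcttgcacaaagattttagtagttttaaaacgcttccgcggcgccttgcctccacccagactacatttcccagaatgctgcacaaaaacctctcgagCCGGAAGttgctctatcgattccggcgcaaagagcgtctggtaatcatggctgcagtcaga
Mrpl35 (chr6:71823735-71824034, minus strand): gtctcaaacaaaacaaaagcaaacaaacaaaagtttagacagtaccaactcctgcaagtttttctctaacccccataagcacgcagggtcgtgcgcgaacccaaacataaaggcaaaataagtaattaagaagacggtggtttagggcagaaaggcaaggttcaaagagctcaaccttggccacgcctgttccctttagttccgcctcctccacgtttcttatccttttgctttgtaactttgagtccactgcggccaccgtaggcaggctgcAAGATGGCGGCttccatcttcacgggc
Mrps21 (chr3:95871465-95871764, minus strand): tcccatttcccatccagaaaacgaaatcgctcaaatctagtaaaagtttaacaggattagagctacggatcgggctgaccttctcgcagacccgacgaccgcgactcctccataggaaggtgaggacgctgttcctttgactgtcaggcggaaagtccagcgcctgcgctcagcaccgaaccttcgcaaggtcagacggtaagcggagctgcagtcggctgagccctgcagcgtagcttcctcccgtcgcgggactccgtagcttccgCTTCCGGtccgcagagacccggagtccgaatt

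In Mrpl52 both matches are on the strand opposite to the gene, their first bases 47 bases before and 2 bases after the start. In Mrps22 the match begins 11 bases before the start, and in Mrps21 it begins 18 bases after. Among the other windows of the largest falls and the rises, Mrpl3, which fell, and Mrpl51, which rose, hold the core. Mrpl50, Mrpl1, Mrpl47, Mrpl16 and Mrpl23, which fell, hold none of the 4 motifs in this window. Nor do Mrpl45, Mrpl44, Mrps6 and Mrps36, which rose.

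Of 9 genes for regulators of nuclear-encoded mitochondrial genes, 6 fell and 1 rose, beside 18.3% of all genes called lower and 19.6% called higher. At mean levels of 6 to 7, the range that holds the median level of the list (6.21), 38.6% of all genes were called lower. Without vehicle replicate 2, 4 of the 9 were called. Gabpa, the DNA-binding subunit of the factor GABP, read 6.87, 6.87 and 7.01 in vehicle and 5.64, 6.02 and 5.62 with PLX3397, with no overlap (change -1.16, SE 0.11, adjusted p = 2.27e-05). Its partner Gabpb1 changed by -0.49 and the coactivator gene Pprc1 by -0.91. Yy1 fell by 0.41 (SE 0.10, adjusted p = 0.0078), Esrra by 0.32 (adjusted p = 0.043), and Myc by 0.41 (adjusted p = 0.040), a call that Myc lost in 8 of the other settings. For Esrra and for Myc the groups overlapped. Nrf1, the factor of the NRF1 palindrome, was 5.88, 5.87 and 5.87 and then 5.95, 6.19 and 6.02, which was not called (change 0.18, adjusted p = 0.130). The coactivator gene Ppargc1b rose by 0.31. Whether these transcripts bear on the ribosomal protein genes was not tested.

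Many of the genes share their start region with a neighbour. Of the 68 genes, 24 (35.3%) have a protein-coding gene on the other strand that starts within 1000 bases upstream, head to head, against 8.48% of protein-coding genes. Of the 9 such genes that fell, 8 had a measured neighbour, and 3 of these neighbours also fell, beside 18.3% of all genes. That all-gene share was 27.0% at mean levels of 5 to 6, 38.6% at 6 to 7 and 40.0% at 7 to 8, and neighbours were not matched by level. The pairs that fell together were Mrpl32 with the proteasome gene Psma2 (-0.44 and -0.66, starts 205 bases apart), Mrpl30 with Mitd1 (-0.43 and -0.44, 66 bases) and Mrps27 with Ptcd2 (-0.51 and -0.45, 108 bases). Mrpl50 fell by 1.16 while Zfp189, 93 bases away, had a change of 0.23 without a call, and Mrpl47 fell while Ndufb5, 308 bases away, had one of 0.20 without a call. Mrps18b fell while Ppp1r10 rose by 0.74. The largest neighbour changes stood beside genes that were not called, with Klc4 (1.02) next to Mrpl2 and Pnpla7 (0.89) next to Mrpl41. Mrpl46 and Mrps11 are each other's neighbour, 42 bases apart, and neither was called (-0.17 and -0.14). These pairs were picked after their values were seen.

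**Figure D4:**
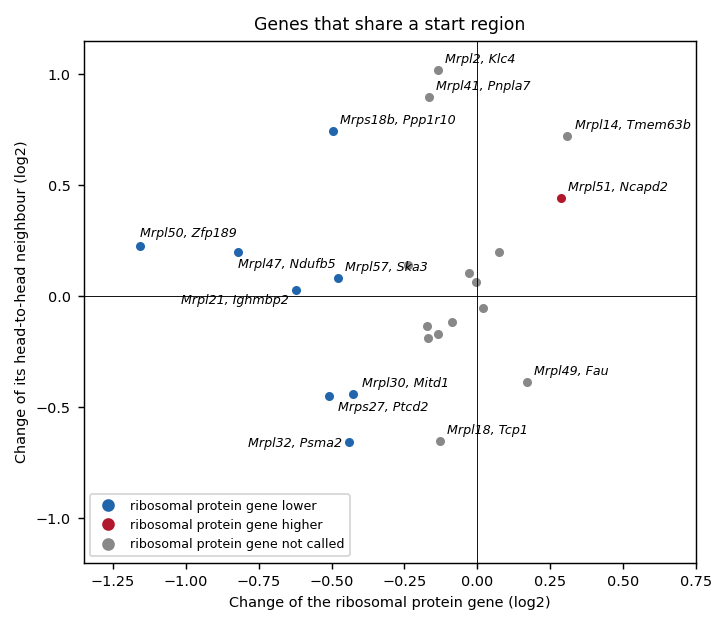
Change (log2, PLX3397 minus vehicle) of a mitochondrial ribosomal protein gene, on the horizontal axis, and of its head-to-head neighbour, on the vertical axis. Points are 23 pairs with both genes measured (Mrpl46 with Mrps11 appears from both sides), coloured by the call of the ribosomal protein gene, and the pairs that fell together lie at the lower left, with Mrpl32 and Psma2 at -0.44 and -0.66.

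Other lists of mitochondrial gene expression are given by their counts, beside the 18.3% of all genes called lower and 19.6% called higher. Mitoribosomal proteins with other symbols were measured for 4 genes, and Ptcd3, which binds mRNA at the small subunit, fell by 1.16 and Chchd1 by 0.65, while Gadd45gip1 (-0.21) and Dap3 (-0.08) were not called. Of 14 translation factor genes 6 fell and 0 rose (median -0.19). Guf1, a relative of bacterial elongation factor 4, fell by 1.16, the release factor gene Mtrf1 by 0.70, the initiation factor gene Mtif2 by 0.61 and the elongation factor gene Gfm1 by 0.36. Mtrf1 exceeded background on only 1 PLX3397 array (3.51, 3.64 and 3.38), so the size of its fall measures no fold. Tufm, the elongation factor that delivers tRNA, was 7.47 ± 0.10 and 7.47 ± 0.09 (change 0.00, adjusted p = 0.980). Of 19 mitochondrial aminoacyl-tRNA synthetase and amidotransferase genes 5 fell (26.3%) and 0 rose (median -0.07), led by Yars2 (-1.12) and Rars2 (-0.77). That share of falls is close to the 27.0% of all genes at a mean level of 5 to 6, the range that holds the median level of the list (5.35). The median level of the translation factor genes (5.82) lies in the same range, and 42.9% of them fell.

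Of 27 assembly and rRNA modification genes 13 fell and 3 rose (median -0.19). Tfb1m, the methyltransferase of the small subunit rRNA, read 6.37, 6.50 and 6.55 in vehicle and 4.96, 5.14 and 5.16 with PLX3397, with a change of -1.38 (SE 0.09, adjusted p = 1.31e-06). The assembly GTPase gene Gtpbp10 (-1.33), the rRNA-binding protein gene Fastkd2 (-1.30) and Mterf3 (-1.26) also fell. Of 18 genes of mitochondrial transcription, DNA and RNA maintenance 13 fell and 1 rose (median -0.71). Pnpt1, a mitochondrial polynucleotide phosphorylase whose gene is also induced by interferon, read 7.51, 7.40 and 7.34 and then 5.29, 5.13 and 5.16 (change -2.22, SE 0.09, adjusted p = 4.06e-08). The mRNA-stabilising partners Slirp and Lrpprc fell by 1.13 and 0.87, the RNase P subunit gene Trmt10c by 1.11 and the mitochondrial DNA packaging gene Tfam by 0.84. Of 25 import genes 14 fell and 4 rose (median -0.32), among them Tomm70a (-1.30), the chaperones Hspd1 (-0.87) and Hspa9 (-0.73), and Timm8b, which rose by 0.83. At mean levels of 5 to 6, the range of the assembly list's median (5.27), 27.0% of all genes were called lower. That share was 38.6% at 6 to 7, for transcription and maintenance (6.09), and 40.0% at 7 to 8, for import (7.56). In these lists 48.1%, 72.2% and 56.0% of genes were called lower. Genes encoded in mitochondrial DNA were not analysed here.

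As a comparison, 39 of 61 cytosolic ribosomal protein genes fell (63.9%) and 4 rose, with a median of -0.40, although their near-identical copies can share probes. Nuclear respiratory chain genes, whose mitochondrially encoded partners are products of this ribosome, were lower in 18 of 85 cases (21.2%) and higher in 8, with a median of -0.04, a set that includes assembly factors. The mitochondrial ribosomal protein genes, with 37.7% falls, lay between them. These lists differ in signal level, with medians of 9.99 for the cytosolic, 8.08 for the respiratory chain and 6.78 for the mitochondrial ribosomal genes. In the ranges that hold these medians, 31.9% (9 to 10), 35.1% (8 to 9) and 38.6% (6 to 7) of all genes were called lower. The share of falls among respiratory chain genes was thus under that of all genes of like signal. The differences between lists were not tested.

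**Figure D5:**
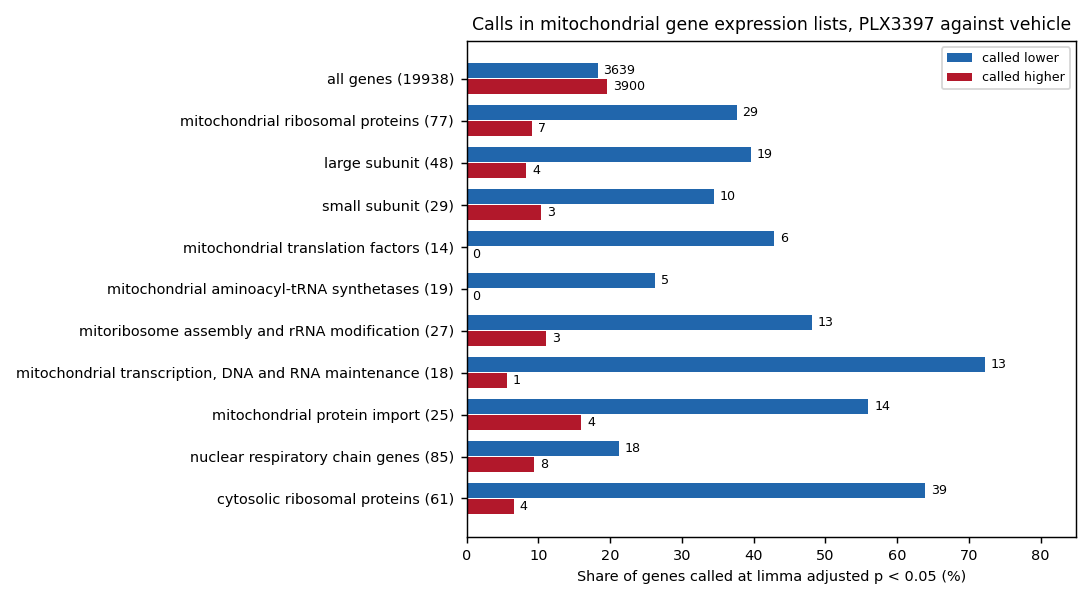
Share of genes called lower (blue) and higher (red) at a limma adjusted p under 0.05, in percent, with the number of genes at the end of each bar and the number measured in parentheses. Every list other than all genes has more falls than rises, with 29 and 7 among mitochondrial and 39 and 4 among cytosolic ribosomal proteins.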

How the data were processed

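The deposited values are log2 signals per probe set on 6 arrays. Their range, 1.57 to 13.47, gives the base of the logarithm. How they were summarised and normalised is not given in the sources used here, and the submitters' processing notes name MAS5 without a role. Values were used as deposited, because array medians differed by less than 0.5. No depth applies to arrays, and their number, 3 per group, limits the precision. Scan dates were not used, so no batch was tested.

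Of 28941 probe sets, 21789 carry 1 symbol in the platform annotation, and all 77 member symbols matched RefSeq. Groups were compared with limma 3.58.1 in R 4.3.3 (lmFit, eBayes, two-sided, adjustment over 19938 genes), which was tested on simulated data. Alternatives covered normalisation, filters at mean levels of 4 and 6, variance models, array weights, the replicate block, probe set averaging, a threshold of 0.01 and leaving out each array. Members and lists were chosen with earlier results of these data known. Genes named are, of called members without overlap, the 10 largest falls and up to 10 rises, the 2 members of each subunit with the highest and the 2 with the lowest signal, the Mrps18 paralogues, Mrps36, members whose probe sets disagree in direction, Myc, Nrf1, Gabpa, Pprc1 and Yy1, and the 2 to 4 largest called changes of each list. Other genes printed were chosen after their values were seen. Motifs and head-to-head starts were searched in RefSeq promoter windows with Python 3.11.15.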

Additional observations from a re-analysis of the deposited data

Results flagged for a closer look

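Second probe sets, which the gene-level comparison does not use, differed between groups for 3 of the 8 genes that have one. In the gene-level comparison 37.8% of all genes were called in either direction, a share close to 3 of 8. The second probe set of Mrpl23 was lower with PLX3397 by a change of -0.65, that of Mrps33 by one of -0.49, and that of Mrps36 was higher by 0.40. Each changed in the direction of the probe set used. Outliers within groups were not looked for, since the groups hold 3 arrays.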

How the results depend on the processing

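The count of falls stayed within 1.5 times 29 in every alternative run, from 25 at a threshold of 0.01 and among genes with a mean level over 6 to 41 with centred arrays. Only 59 of the 77 genes have a mean level over 6, and 39.6% of all genes at such levels were called lower. The share of all genes called lower was 14.2% at a threshold of 0.01 and 25.9% with centred arrays. The count of rises did not stay within 1.5 times 7. It was 12 with quantile normalisation, 13 with cyclic loess, chosen after seeing the data, 1 with arrays centred on their medians, 2 at a threshold of 0.01, and from 3 to 6 when leaving out each array. Quantile normalisation moved the median change of all 77 genes to -0.061 and that of the large subunit to -0.093, and cyclic loess moved the latter to -0.12. Centring moved the medians to -0.30, and to -0.33 and -0.24 for the large and small subunits. The median change of all genes turned to -0.094 with centring and to -0.07997 among genes with a mean level over 6, of which 4334 were called. Directions turned, without a call, for Mrps18a with centring (-0.076) and for Mrps12 with quantile normalisation (-0.047), centring (-0.12) and cyclic loess (-0.025). Leaving out each array turned Mrpl22 (-0.0070 to 0.62, differences near background that measure no fold), Mrps12 (-0.052 to 0.091) and Mrps18a (-0.0047 to 0.16), the first and last without PLX3397 replicate 2 and Mrps12 without vehicle replicate 2 or PLX3397 replicate 1. Replicate numbers did not pair the arrays (correlations of deviations for equal numbers -0.010, 0.0080 and -0.013). The replicate block gave 28 falls and 7 rises. The cause of these shifts was not tested. With 3 arrays a group, the smallest change called among the 77 genes was 0.27.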

Other observations

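Within each group 1 array tended to be the lowest. PLX3397 replicate 3 was the lowest of its group for 47 of the 77 mitochondrial ribosomal protein genes (61.0%), against 43.9% of all genes, and vehicle replicate 2 for 45 (58.4%), against 34.2% of all genes. Without PLX3397 replicate 3, 27 genes were called lower and 6 higher, and without vehicle replicate 2, 30 and 5.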
